A study of Mus musculus with 4 samples.

Results

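BMP signalling genes were followed in fibroblasts with and without PTIP, through 3 BMP ligands (Bmp2, Bmp4, Bmp7), the BMP antagonist Gremlin (Grem1), 4 Id factors (Id1, Id2, Id3, Id4) and 2 Msx homeobox factors (Msx1, Msx2). Every probe set annotated to 1 of these symbols alone was taken, which gave 18 probe sets of the 45037 measured, for 10 genes of 18193. The genes were chosen by a proposal made with the genotype and replicate-number differences of these same 4 arrays in view. Those differences are therefore given as a description, without a test of the genes by themselves. Of the 10 genes, 8 passed a filter on dim signals, a mean log2 signal at or above that of 47.68 intensity units, and Bmp2 and Bmp7 did not.

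The PTIP -/- cells were immortalized mouse embryonic fibroblasts (MEF) of genotype PTIP flox/flox, infected with a retrovirus that expressed Cre recombinase. The PTIP +/+ cells were the same conditional knockout MEF, infected with the vector alone. PTIP +/+ cells thus carried the floxed alleles and were selected with puromycin like the others, but had no Cre. The recorded serum percentage and puromycin dose were the same for every sample. Loss of PTIP and presence of Cre cannot be told apart in this design. Each genotype gave 2 RNAs, numbered replicate 1 and replicate 2, and each RNA was hybridised to 1 Affymetrix array. What the numbers stand for, such as a culture, an infection or a day, is not in the labels. In RNA from whole cultures, fewer cells that express a gene and less RNA per cell cannot be told apart.

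BMPs are secreted ligands of the TGF-beta superfamily. They bind type I and type II receptor kinases, which phosphorylate Smad1, Smad5 and Smad9, and these enter the nucleus with Smad4. Gremlin binds BMP2, BMP4 and BMP7 outside the cell and keeps them from their receptors. Id1, Id2 and Id3 are among the best known direct targets of BMP Smads in fibroblasts and other mesenchymal cells. Id proteins lack a DNA-binding region and hold bHLH transcription factors away from DNA. Msx1 and Msx2 are homeodomain repressors that respond to BMP in limb buds, facial mesenchyme and other embryonic tissues.

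The stretches of DNA just upstream of 4 of the genes are shown because the results turn on these genes: Bmp4 and Grem1 differed most between the genotypes, and Bmp4, Id2 and Msx1 most between the replicate numbers. Each is the 250 bases before the annotated start, 5′ to 3′ on the strand of the gene, from RefSeq on build GRCm38.p6. Bmp4 lies at chr14:46390670-46390919 and Grem1 at chr2:113758649-113758898. Id2 lies at chr12:25096093-25096342 and Msx1 at chr5:37824586-37824835. All 4 are on the minus strand. Capitals mark 3 short motifs, searched on both strands and without overlap in these windows: GGCGCC, a GC-rich site bound by BMP Smads, CAGAC, the core of the Smad-binding element, and CAGCTG, an E-box of the kind bound by bHLH factors.
Bmp4: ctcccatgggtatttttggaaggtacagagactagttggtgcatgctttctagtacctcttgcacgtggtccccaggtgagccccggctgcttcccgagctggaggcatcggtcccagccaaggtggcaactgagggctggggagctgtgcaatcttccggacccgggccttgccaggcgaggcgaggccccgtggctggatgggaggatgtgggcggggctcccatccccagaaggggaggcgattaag
Grem1: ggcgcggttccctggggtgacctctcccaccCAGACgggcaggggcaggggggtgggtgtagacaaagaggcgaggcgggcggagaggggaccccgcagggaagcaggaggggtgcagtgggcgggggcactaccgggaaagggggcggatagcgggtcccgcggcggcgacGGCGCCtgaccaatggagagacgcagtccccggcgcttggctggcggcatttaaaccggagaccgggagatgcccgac
Id2: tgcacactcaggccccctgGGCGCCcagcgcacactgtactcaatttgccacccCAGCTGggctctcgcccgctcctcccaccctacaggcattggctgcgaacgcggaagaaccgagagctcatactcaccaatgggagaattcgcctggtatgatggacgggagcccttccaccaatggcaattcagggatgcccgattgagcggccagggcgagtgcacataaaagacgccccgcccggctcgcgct
Msx1: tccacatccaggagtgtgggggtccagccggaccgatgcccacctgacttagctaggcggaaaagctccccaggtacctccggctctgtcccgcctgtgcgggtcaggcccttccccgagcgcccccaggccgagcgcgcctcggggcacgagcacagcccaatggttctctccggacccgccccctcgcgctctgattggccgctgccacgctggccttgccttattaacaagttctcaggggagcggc

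GGCGCC was found 78 bases upstream of the start of Grem1 and 231 bases upstream of that of Id2. CAGAC was found 219 bases upstream of Grem1 and CAGCTG 196 bases upstream of Id2, counted to the first base of the motif. The windows of Bmp4 and Msx1 held none of the 3. Among 32851 promoter windows of the same length, 9.6% held GGCGCC, 42.2% CAGAC and 13.0% CAGCTG. Promoters of 7 of the 10 genes were matched by symbol. Of those not printed, Id3 held CAGAC at 167 and 68 bases upstream, Id4 held GGCGCC at 148 bases, and Msx2 held none. A match of letters is a description of the sequence and not a binding site.

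Signals were deposited as linear array intensities. The filter of 47.68 is the 40th percentile of probe-set means, and no level is read from a signal under it. Between 34.1% and 40.6% of probe sets lay below it on an array. Paxip1, which encodes PTIP, read 43.5 and 74.6 in PTIP -/- cells against 1029.5 and 1040.1 in PTIP +/+ cells on its brightest probe set. Of the 9 fibroblast markers, Thy1 and Pdgfra varied widely between arrays and the other 7 were bright on all of them, with Vim at 30992.3 and 33293.8 in PTIP -/- cells against 31040.7 and 39291.8 in PTIP +/+ cells. The summed signal of the 9 fibroblast markers was 173616.0 and 155016.9 in PTIP -/- cells and 180911.1 and 188936.5 in PTIP +/+ cells. Markers of other cell types were mostly dim. By the mean log2 signal over the arrays Epcam was the brightest epithelial marker (220.4 to 436.1). A second Epcam probe set read only 2.1 to 8.8, below the filter on every array. Csf1r was the brightest of macrophages and blood cells by the same mean (218.1 to 278.2). Kdr was the brightest of endothelium (107.0 to 172.0) and Alpl of bone and cartilage (112.9 to 153.9). Acta1, a muscle actin and the brightest myogenic marker, ran from 152.8 to 8870.4, while Myf5 lay below the filter on every array, as did Cdh1 of epithelium and Pecam1 and Tie1 of endothelium. Only 2 arrays per genotype limit the precision of every value.

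Bmp4, a ligand of the BMP2/4 branch, was lower in PTIP -/- cells within both replicate numbers. It read 50.4 and 4839.2 in PTIP -/- replicates 1 and 2 against 152.8 and 19304.5 in PTIP +/+ replicates 1 and 2. PTIP -/- replicate 1 lay just above the level filter, and PTIP +/+ replicate 2 was the highest. The genotypes overlapped, because both arrays of number 2 were far above both arrays of number 1. Within number 1 Bmp4 was 3.03-fold lower in PTIP -/- cells, and within number 2 it was 3.99-fold lower. The mean log2 signal was 8.95 ± 4.66 (SD, n = 2) in PTIP -/- cells and 10.75 ± 4.94 (SD, n = 2) in PTIP +/+ cells. In limma this gave a log2 difference of -1.80 ± 3.33 (SE), an error that counts the difference between the numbers as spread. With an array left out the numbers were no longer balanced, and the difference was 1.49 without PTIP -/- replicate 1, -5.09 without PTIP -/- replicate 2, -5.29 without PTIP +/+ replicate 1 and 1.69 without PTIP +/+ replicate 2.

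The other ligands gave little signal. Bmp2, the closest relative of Bmp4, read 9.5 and 50.4 in PTIP -/- replicates 1 and 2 against 3.5 and 29.4 in PTIP +/+ replicates 1 and 2, so that 3 of 4 arrays lay below the filter. Within number 2 it was at least 1.06-fold higher in PTIP -/- cells, and within number 1 no fold can be given. Bmp7, a ligand of the other main BMP branch, had 3 probe sets, of which 2 were below the filter on all arrays, at 2.0 to 7.3. The brightest probe set of Bmp7 read 29.3 and 76.0 in PTIP -/- cells against 31.0 and 21.0 in PTIP +/+ cells. That put it at least 1.59-fold higher in PTIP -/- replicate 2 than in PTIP +/+ replicate 2, with no fold within number 1.

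Grem1, the antagonist, was also lower in PTIP -/- cells within both numbers, but its order over the numbers was the opposite of that of Bmp4. It read 1671.6 and 371.3 in PTIP -/- replicates 1 and 2 against 6097.9 and 1565.9 in PTIP +/+ replicates 1 and 2. PTIP +/+ replicate 1 was the highest array and PTIP -/- replicate 2 the lowest, and the genotypes overlapped only through PTIP -/- replicate 1 and PTIP +/+ replicate 2, which differed little. Grem1 was 3.65-fold lower in PTIP -/- cells within number 1 and 4.22-fold lower within number 2. The mean log2 signal was 9.62 ± 1.53 (SD, n = 2) in PTIP -/- cells and 11.59 ± 1.39 (SD, n = 2) in PTIP +/+ cells, a difference of -1.97 ± 1.04 (SE). It was -3.06 without PTIP -/- replicate 1, -0.89 without PTIP -/- replicate 2, -0.99 without PTIP +/+ replicate 1 and -2.95 without PTIP +/+ replicate 2.

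**Figure D1:**
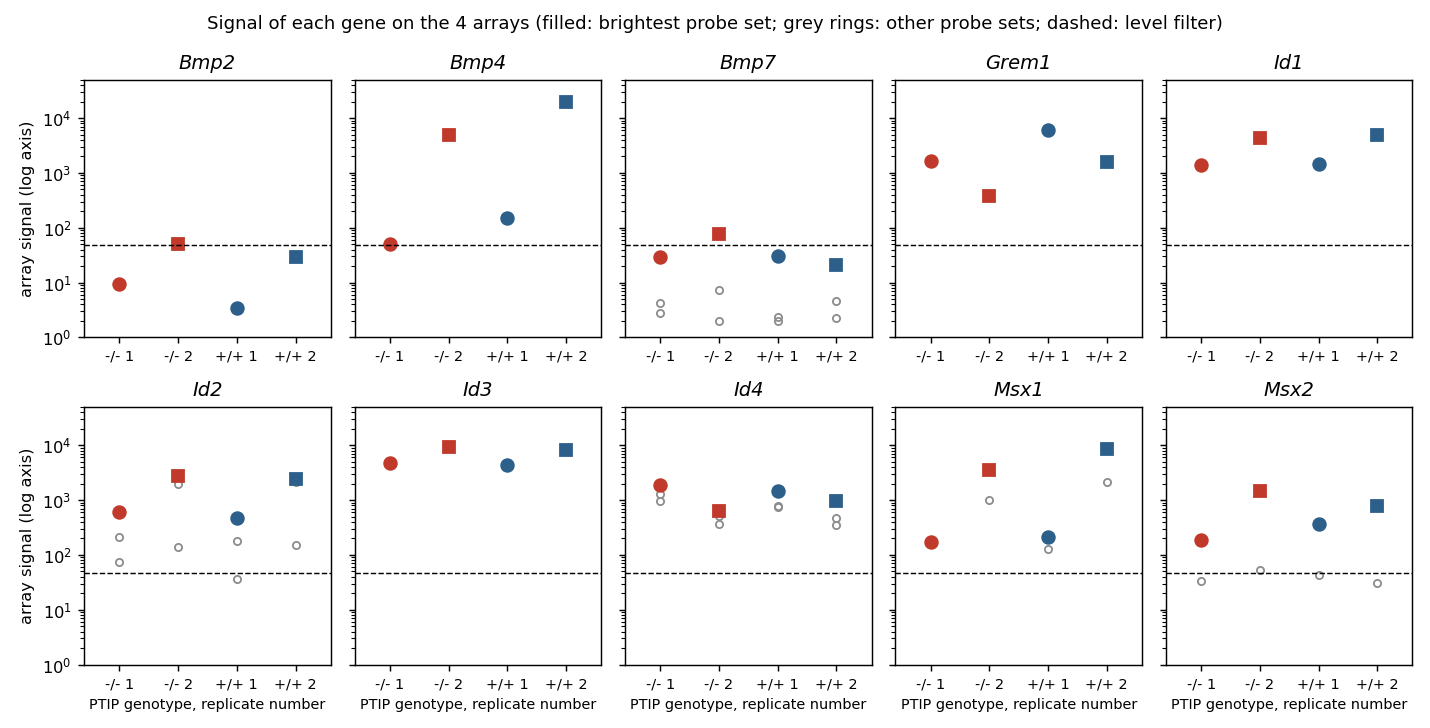
Array signal (log axis) of the 10 genes in PTIP -/- (red, left) and PTIP +/+ (blue, right) fibroblasts, replicate 1 as circles and replicate 2 as squares; grey rings are further probe sets and the dashed line is the level filter of 47.68. Bmp4 and Grem1 lie lower in red than in blue within each number, whereas Id1, Id2 and Id3 lie at like heights and are set apart by the number.

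The Id genes did not follow Bmp4 between the genotypes. Id1 read 1406.3 and 4265.0 in PTIP -/- replicates 1 and 2 against 1440.3 and 4888.2 in PTIP +/+ replicates 1 and 2, which is 1.02-fold and 1.15-fold lower within the numbers. Id2 read 609.8 and 2804.9 in PTIP -/- cells against 477.6 and 2389.0 in PTIP +/+ cells on its brightest probe set, 1.28-fold and 1.17-fold higher. Id3 read 4813.6 and 9298.4 in PTIP -/- cells against 4420.3 and 8035.6 in PTIP +/+ cells, 1.09-fold and 1.16-fold higher. In all 3 the lowest array of number 2 was above the highest of number 1, while the genotypes overlapped. The share of all genes separated in this way was not counted. The genes were chosen with these differences known, so nothing is read from the separation. Over all arrays the log2 difference was -0.12 ± 0.86 (SE) for Id1, 0.29 ± 1.13 (SE) for Id2 and 0.17 ± 0.50 (SE) for Id3. Id3 turned to -0.01 with arrays centred on their medians.

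The probe sets of Id2 differed in how far they moved. A second one read 211.5 and 1995.4 in PTIP -/- cells against 177.0 and 2181.8 in PTIP +/+ cells, 1.19-fold higher within number 1 and 1.09-fold lower within number 2. The third and dimmest read 75.8 and 141.2 in PTIP -/- cells against 36.2 and 149.4 in PTIP +/+ cells. For this gene, which restrains bHLH factors in many progenitor cells, no probe set was 2-fold apart between the genotypes within both numbers.

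Id4, which in several settings acts against the other Id proteins, ran the other way over the numbers. The signal of its brightest probe set was 1897.0 and 643.8 in PTIP -/- replicates 1 and 2 against 1453.5 and 971.3 in PTIP +/+ replicates 1 and 2. That was 1.31-fold higher in PTIP -/- cells within number 1 and 1.51-fold lower within number 2. The other probe sets were higher in PTIP -/- cells within both numbers, by 1.68-fold and 1.06-fold on one and by 1.30-fold and 1.04-fold on the other. The log2 difference over all arrays was -0.10 ± 0.62 (SE), and 0.18 on the mean of the 3 probe sets, so its direction depended on the probe set.

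Msx1 was lower in PTIP -/- cells within number 2, where it was bright. The signal of its brightest probe set was 173.3 and 3605.1 in PTIP -/- replicates 1 and 2 against 216.0 and 8578.5 in PTIP +/+ replicates 1 and 2, 1.25-fold and 2.38-fold lower. The second probe set read 158.6 and 991.2 in PTIP -/- cells against 126.3 and 2133.5 in PTIP +/+ cells, 1.26-fold higher within number 1 and 2.15-fold lower within number 2. Both probe sets gave the difference within number 2, and neither gave 2-fold within number 1. The fitted log2 difference was -0.78 ± 2.39 (SE), but 1.41 without PTIP -/- replicate 1 and 1.87 without PTIP +/+ replicate 2, against -2.97 without PTIP -/- replicate 2 and -3.44 without PTIP +/+ replicate 1.

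Msx2, the close relative of Msx1, moved in opposite directions. It read 186.3 and 1456.4 in PTIP -/- replicates 1 and 2 against 371.1 and 792.1 in PTIP +/+ replicates 1 and 2. This was 1.99-fold lower in PTIP -/- cells within number 1 and 1.84-fold higher within number 2. The genotypes overlapped, with both PTIP +/+ arrays lying between the PTIP -/- arrays. A dim second probe set, below the filter on 3 arrays, ran from 30.4 to 52.2. The fitted log2 difference was -0.06 ± 1.12 (SE), and 0.08 on the mean of both probe sets.

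Against the background of all genes, the limma comparison of the genotypes called 0 of 12509 genes at an adjusted p under 0.05 (0.0%), with 286 at an unadjusted p under 0.05. Of the 8 genes that passed the filter, 2 were at least 2-fold lower in PTIP -/- cells within both numbers, Bmp4 and Grem1, and 0 were at least 2-fold higher. Among all genes tested, 0.847% were lower by that rule and 0.719% higher. The choice of genes used this contrast, so nothing is read from those shares. The median log2 difference of the 8 was -0.11, with -0.18 within number 1 and -0.40 within number 2, against 0.05, 0.03 and 0.05 for all 12509 genes. With arrays centred on their medians it was -0.29 for the 8 and -0.13 for all genes.

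**Figure D2:**
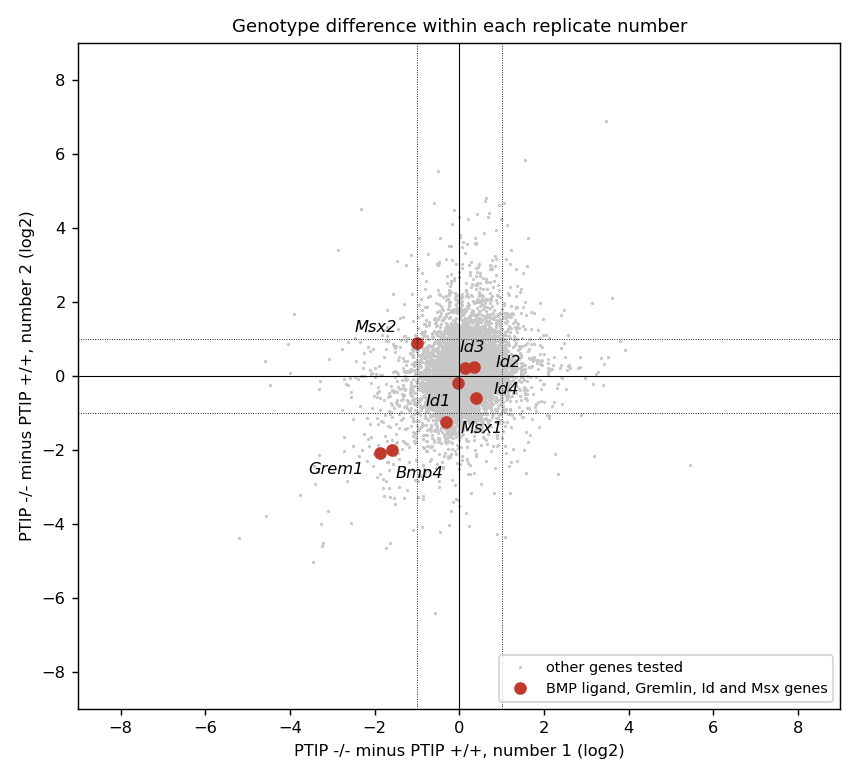
Log2 difference of PTIP -/- minus PTIP +/+ within number 1 (horizontal) and within number 2 (vertical) for 12509 genes (grey) and the 8 genes that passed the filter (red); dotted lines mark 2-fold. Bmp4 at -1.60 and -2.00 and Grem1 at -1.87 and -2.08 lie in the corner lower in PTIP -/- cells within both numbers, Id1, Id2 and Id3 lie near the centre, and Msx2 lies at -0.99 and 0.88.

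The replicate numbers set most of these genes farther apart than the genotypes did. Bmp4 was 96.0-fold higher in number 2 than in number 1 in PTIP -/- cells and 126-fold higher in PTIP +/+ cells. Msx1 was 20.8-fold higher in number 2 in PTIP -/- cells and 39.7-fold higher in PTIP +/+ cells, and Msx2 7.82-fold and 2.13-fold higher. Id1, an early BMP target, was 3.03-fold higher in number 2 in PTIP -/- cells and 3.39-fold higher in PTIP +/+ cells. Id2 was 4.60-fold and 5.00-fold higher on its brightest probe set, and 9.43-fold and 12.3-fold higher on the second. Id3 was 1.93-fold and 1.82-fold higher.

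Grem1 and Id4 were lower in number 2. Grem1 was 4.50-fold lower in number 2 in PTIP -/- cells and 3.89-fold lower in PTIP +/+ cells. Id4 was 2.95-fold lower in number 2 in PTIP -/- cells and 1.50-fold lower in PTIP +/+ cells on its brightest probe set, with 2.58-fold and 1.63-fold on the second and 2.64-fold and 2.13-fold on the third. Number 2 thus held more signal for Bmp4, for 3 Id genes and for both Msx genes, and less for the antagonist and Id4, in either genotype.

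Of the 8 genes that passed the filter, 5 were at least 2-fold higher in number 2 within both genotypes (Bmp4, Id1, Id2, Msx1 and Msx2) and 1, Grem1, at least 2-fold lower. With probe sets of a gene averaged, Msx2 left the 5, with log2 differences of 1.79 in PTIP -/- cells and 0.30 in PTIP +/+ cells. Among all genes tested, 4.36% were higher and 3.3% lower by that rule. Since the genes were chosen with these differences known, the shares carry no weight. The median log2 difference of number 2 minus number 1 over the 8 was 1.90 in PTIP -/- cells and 1.43 in PTIP +/+ cells, against -0.04 and -0.03 for all genes.

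Some fibroblast markers moved with the number as well. Thy1, a surface protein of fibroblasts, read 1500.7 in replicate 2 and 14822.9 in replicate 1 of PTIP -/- cells, and 239.2 in replicate 2 and 16080.1 in replicate 1 of PTIP +/+ cells. Pdgfra, a PDGF receptor of mesenchymal cells, read 174.2 in replicate 2 and 3563.4 in replicate 1 of PTIP -/- cells, and 583.2 in replicate 2 and 5010.1 in replicate 1 of PTIP +/+ cells. These were 2 of the 9 fibroblast markers, and the other 7 were not 2-fold apart within both genotypes. Of 5 myogenic markers Acta1 was higher in number 2 (8870.4 against 152.8 in PTIP -/- cells and 1850.3 against 175.7 in PTIP +/+ cells). Des, an intermediate filament of muscle, ran from 70.2 to 85.8 on its brightest probe set, but a second read 219.5 and 108.2 in PTIP -/- cells against 32.3 and 19.5 in PTIP +/+ cells, at least 4.60-fold and at least 2.27-fold higher. Myod1, Myf5 and Myog read at most 57.8, 10.1 and 52.6 on any array. The summed myogenic signal was 237.5 and 8956.2 in PTIP -/- cells, against 245.9 and 1923.2 in PTIP +/+ cells, number 1 before number 2. Among macrophage and blood cell markers, Lyz2, a lysozyme, read 333.3 and 99.9 in PTIP -/- cells against 153.4 and 36.0 in PTIP +/+ cells. It was 2.17-fold and at least 2.10-fold higher in PTIP -/- cells, and 3.34-fold and at least 3.22-fold lower in number 2. Lyz2 was the only 1 of the 5 tested markers of that list to be 2-fold apart by either comparison. All 5 had a higher mean log2 signal in PTIP -/- cells. Cd14 was lower in PTIP -/- cells within number 1, however, and Cd68 and Adgre1 were lower within number 2. Cd68 was higher in number 2 in both genotypes. Acan, a cartilage proteoglycan, read 79.6 and 37.2 in PTIP -/- cells against 188.5 and 134.3 in PTIP +/+ cells, 2.37-fold and at least 2.82-fold lower. Sox9 of the same list went the other way, at 86.2 and 98.4 against 49.3 and 28.8, 1.75-fold and at least 2.06-fold higher. A second Sox9 probe set lay below the filter on every array. Of the 5 tested bone and cartilage markers, 3 had a higher mean log2 signal in PTIP -/- cells and 2 a lower one. The part of these marker differences in the values of the BMP genes was not tested.

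**Figure D3:**
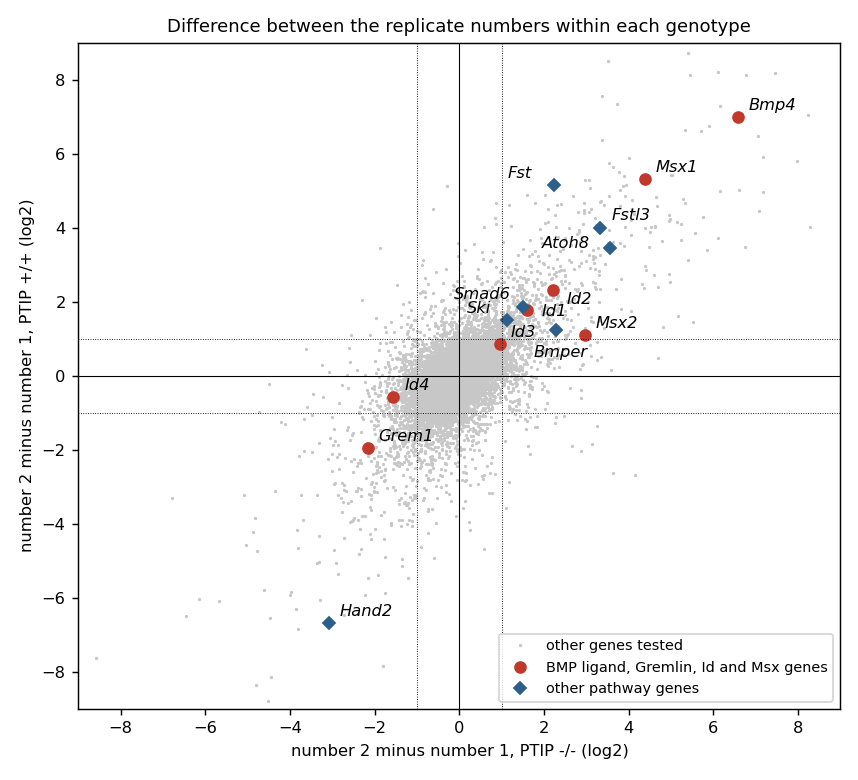
Log2 difference of number 2 minus number 1 in PTIP -/- cells (horizontal) and in PTIP +/+ cells (vertical) for 12509 genes (grey), the 8 genes that passed the filter (red) and the 7 other pathway genes 2-fold apart within both genotypes (blue diamonds); dotted lines mark 2-fold. Bmp4 lies at 6.59 and 6.98, Msx1 at 4.38 and 5.31 and Id2 at 2.20 and 2.32, and Grem1 at -2.17 and -1.96 lies on the opposite side.

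Other genes of the pathway were followed in 6 lists of 68 genes in all, of which 49 passed the filter. With limma 0 of the 49 passed between the genotypes, as for all genes. At least 2-fold within both numbers, 2 were lower in PTIP -/- cells, Bmper and Fst, and 1 was higher, Fstl3. Among all genes tested, 0.847% were lower by that rule and 0.719% higher. The lists were chosen with earlier results of these data known, so nothing is read from those shares. The median log2 difference of the 49 was 0.08. Bmper, Fst and Fstl3 all encode secreted binding proteins of BMPs or activins.

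Among 9 tested extracellular antagonists other than Grem1, Bmper, a secreted modulator of BMPs, read 319.1 and 1539.1 in PTIP -/- replicates 1 and 2 against 1441.0 and 3401.2 in PTIP +/+ replicates 1 and 2. Its log2 difference was -2.18 within number 1 and -1.14 within number 2. Fst, follistatin, which binds activins and BMPs, read 47.4 and 224.7 in PTIP -/- cells against 146.9 and 5198.9 in PTIP +/+ cells. That was at least 3.08-fold lower in PTIP -/- cells within number 1 and 23.1-fold lower within number 2. A second probe set of Fst, at 62.4 and 177.9 in PTIP -/- cells against 82.8 and 2861.2 in PTIP +/+ cells, was only 1.33-fold lower within number 1, so 2-fold within both numbers rests on the first. Fstl3, a follistatin-like activin inhibitor, went the other way, with 117.1 and 1174.9 in PTIP -/- cells against 21.3 and 341.6 in PTIP +/+ cells. It was at least 2.46-fold higher in PTIP -/- cells within number 1 and 3.44-fold higher within number 2. The log2 differences of the 9 had a median of -0.10, 5 being below 0 and 4 above.

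Among receptors and Smads, 0 genes were at least 2-fold lower or higher in PTIP -/- cells within both numbers. Of all genes tested, 0.847% and 0.719% were, so 0 in a short list is not read as a result. Bmpr1a, a type I receptor, differed by 0.02 log2 within number 1 and 0.13 within number 2, and Bmpr2, the type II receptor, by -0.04 and 0.36. Acvr1, another type I receptor, differed by 0.18 and 0.71, Acvr2a by -0.07 and 0.12, Bmpr1b by -0.40 and 0.07, and the co-receptors Eng by -0.04 and 0.18, Rgma by 0.09 and -0.52 and Rgmb by 0.18 and 0.53. Acvrl1, an endothelial type I receptor that lay below the filter on both PTIP -/- arrays, was at least 1.21-fold and 1.58-fold lower in PTIP -/- cells. Acvr2b, a type II receptor for activins and BMPs, had the largest fitted difference of the 10 receptor genes at -0.74 ± 0.97 (SE), with 52.6 and 98.2 in PTIP -/- cells against 49.3 and 292.0 in PTIP +/+ cells. Its direction depended on the probe set, since a second one read 106.6 and 132.4 in PTIP -/- cells against 33.9 and 79.3 in PTIP +/+ cells, at least 2.24-fold and 1.67-fold higher. The Smads that carry the signal differed by -0.21 and -0.51 (Smad1), 0.03 and 0.20 (Smad4) and -0.02 and 0.04 (Smad5). Smad9, below the filter in PTIP +/+ replicate 1, was at least 1.99-fold higher in PTIP -/- cells within number 1 and 1.44-fold lower within number 2.

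The inhibitory Smads are themselves targets of the pathway. Smad6 differed between the genotypes by -0.15 and -0.51 log2 within the numbers, and Smad7 by 0.00 and 0.24. Bambi, a decoy receptor and target, read 322.5 and 742.4 in PTIP -/- cells against 1179.6 and 732.4 in PTIP +/+ cells, so that it was lower within number 1 alone. Its fitted difference of -0.93 ± 0.54 (SE) was the largest among the 11 Smads and intracellular regulators and among the 10 tested targets. Of those 10 targets, 0 were at least 2-fold higher or lower in PTIP -/- cells within both numbers. With 0.719% of all genes tested higher and 0.847% lower by that rule, this is not read as a result.

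Among the remaining lists, the other BMP family ligands were dim. Bmp8a, with the largest difference of the 4 tested, was at least 1.32-fold higher in PTIP -/- cells within number 1 and at least 1.74-fold within number 2. Of the bHLH factors that Id proteins bind or oppose, Hand2, a factor of limb and heart mesenchyme, had the largest difference. It read 3453.5 and 406.7 in PTIP -/- cells against 2161.6 and 20.9 in PTIP +/+ cells. The E proteins, which are the main partners of Id proteins, differed by 0.32 and 0.09 (Tcf3), 0.20 and 0.23 (Tcf4) and 0.18 and 0.14 (Tcf12) within the numbers.

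**Figure D4:**
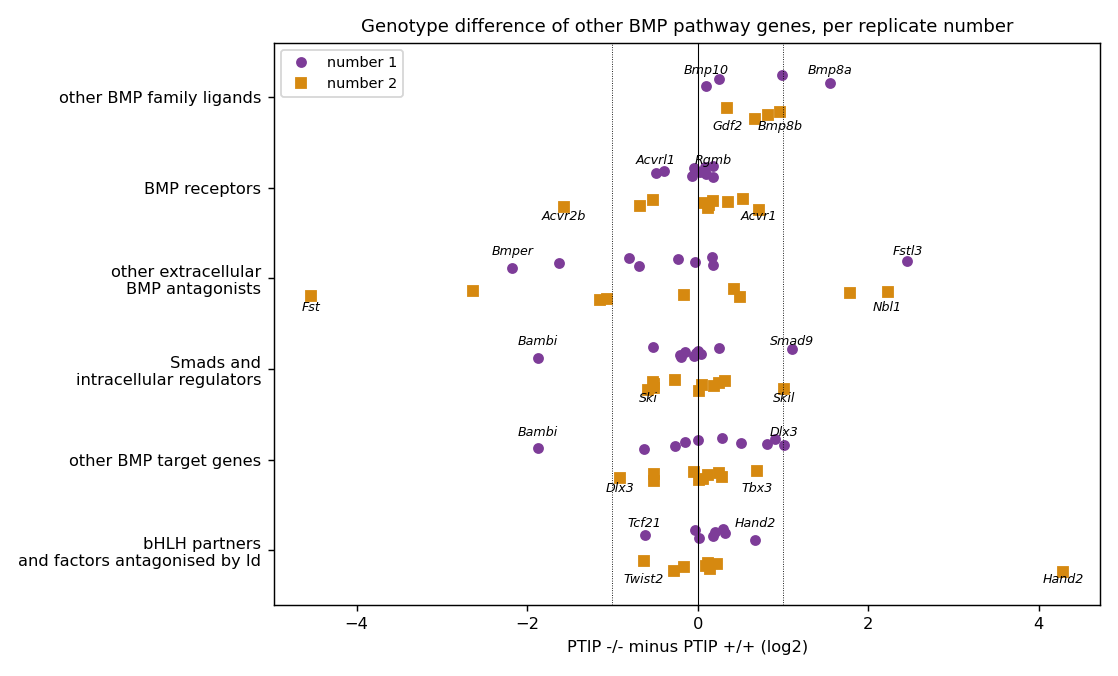
Log2 difference of PTIP -/- minus PTIP +/+ for the tested genes of 6 pathway lists, number 1 as purple circles and number 2 as orange squares, with the lowest and highest gene of each row named; dotted lines mark 2-fold. Antagonists spread widest on the lower side, from Fst at -4.53 in number 2, whereas most receptors and Smads lie within 2-fold.

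Between the numbers, 6 of the 49 other pathway genes were at least 2-fold higher in number 2 within both genotypes (Smad6, Atoh8, Ski, Bmper, Fst and Fstl3) and 1, Hand2, was at least 2-fold lower. Among all genes tested, 4.36% were higher and 3.3% lower by that rule. The way the lists were chosen leaves nothing to read from these shares either. Atoh8, a bHLH gene induced by BMP, read 408.3 in replicate 2 and 34.7 in replicate 1 of PTIP -/- cells, and 583.3 in replicate 2 and 53.8 in replicate 1 of PTIP +/+ cells, of which 34.7 is below the filter. Smad6 read 2731.8 in replicate 2 and 965.1 in replicate 1 of PTIP -/- cells, and 3893.0 in replicate 2 and 1068.1 in replicate 1 of PTIP +/+ cells. In a limma fit with terms for genotype and number, added after the data were seen, 80 of 12509 genes passed for the number (0.64%). Of the 49 pathway genes Atoh8 (log2 3.50 ± 0.20, SE, adjusted p = 0.0412) and Fstl3 (3.67 ± 0.27, SE, adjusted p = 0.0496) were among them, and Smad6 was not (1.68 ± 0.22, SE, adjusted p = 0.0899). Both were lost without the level filter (adjusted p = 0.319 each), and Fstl3 also without the genotype term (adjusted p = 0.184). Atoh8 was not among the genes tested with the filter at the 60th percentile. Smad6 passed with the filter at the 60th percentile (adjusted p = 0.0371), with raised signals (adjusted p = 0.0449) and with a variance trend (adjusted p = 0.0124). Hand2 passed on the mean of its probe sets (adjusted p = 0.0402). The variance trend, with which 893 of all genes passed, also called Bmper (adjusted p = 0.0356) and Bmpr1a (adjusted p = 0.0378). It called Ski (adjusted p = 0.0226) and Tcf4 (adjusted p = 0.0305) as well. Fstl3 lay below the filter in PTIP +/+ replicate 1, and its log2 difference was 3.08 with signals raised to the filter. That of Atoh8 was then 3.27. The fit with terms for genotype and number took the arrays of both genotypes as replicates of a number. Its errors and p-values thus measure how alike the shift was in the genotypes, and not the spread between cultures.

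Genes with the pattern most like that of the widest-ranging gene of each kind were found by the Euclidean distance between log2 signals over the 4 arrays, each gene centred on its mean. For Bmp4 no distance is given, because its 3 nearest genes (Mfap5, Sfrp2 and Ecrg4) each lay below the filter on 1 or 2 arrays. Nearest to Grem1 were Pappa, a protease of IGF-binding proteins (0.34), Kitl, the KIT ligand (0.47), and Spry1, an inhibitor of receptor tyrosine kinase signalling (0.61). Kitl read 884.5 and 225.7 in PTIP -/- cells against 2531.0 and 989.1 in PTIP +/+ cells. Nearest to Id2 were Pros1, L1cam and Rtl8c (0.19, 0.21 and 0.23), and nearest to Msx1 was Ccn3 (0.36). The next to Msx1, Ptprd and Sema3b, lay below the filter on both arrays of number 1. These distances describe 4 arrays and carry no test.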

How the data were processed

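In all, 4 total RNAs of fibroblasts were measured on Affymetrix arrays. The authors deposited linear intensity values, 1 per probe set and array. Per the submitters' processing notes RMA was used, with no version given, although the deposited intensities are linear and differ in their median between arrays. How background was corrected and probes were summarised is unstated in the labels.

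From these, 64 control probe sets were left out, a single 0 was set to 0.1 and log2 was taken. Of the other probe sets, the platform annotation gave a single (1) symbol for 34945 (updated through the gene number for 34741), several for 932 and none for 9160. Each gene was represented by the probe set with the highest mean log2 signal. The 12509 genes with that mean at or above the 40th percentile (47.68) were tested. A signal below 47.68 on the dim side of a fold was raised to it, and the fold is then given as "at least".

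The genotypes were compared in limma 3.58.1 under R 4.3.3 (lmFit, eBayes, all 4 arrays, no covariate, two-sided). Benjamini-Hochberg adjustment was over all genes tested. A check on simulated data came first, with a small spread between arrays and no difference between the replicate numbers. It therefore does not show what the fit could detect in these arrays. Single arrays were compared within each replicate number without a test. The labels do not say that the RNAs came from separate cultures, so p-values measure only the spread between these RNAs. The genes and pathway lists were chosen with earlier results of these data known. All members were named, with tested receptors and Smads, the farthest gene of each pathway list, those 2-fold apart within both numbers, and the brightest marker of each cell type. Other E proteins, targets and markers were named after their values were seen. Alternatives covered scaling, filter, probe-set choice, variance model, replicate block, each array left out, and raised signals.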

Additional observations from a re-analysis of the deposited data

Results flagged for a closer look

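Msx2 stood out because its genotype difference had opposite signs on the arrays numbered 1 and 2. It was 1.99-fold lower in PTIP -/- cells within number 1 and 1.84-fold higher within number 2, so that the log2 difference of number 2 exceeded that of number 1 by 1.87. Each side rests on a single array per genotype, and the difference was not tested.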

How the results depend on the processing

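Over the 12 alternatives run, the count of genes passing between the genotypes was 0 in each with limma, including the replicate block (0 passed, and 982 at an unadjusted p under 0.05). Leaving out 1 array at a time also gave 0. The arrays numbered 1 deviated together from their genotype means (r = 0.686 across genes), which the labels do not explain. With 2 arrays per genotype the arrays numbered 2 mirror them exactly, so this is 1 value and not 2. Bmp4 and Grem1 made up the 2 genes at least 2-fold lower within both numbers under all 6 settings of scaling, filter, probe set and raised signals, with 0 higher. Of these settings only quantile normalization and centring could change the values of Bmp4 and Grem1. Each had 1 probe set and no signal under 47.68, so the other settings left their values as they were. An array left out leaves 1 number and gives no such count. The median log2 difference of the tested genes was -0.29 with arrays centred on their medians and ran from -0.93 to 1.04 with 1 array left out, because the numbers are then unequal between the genotypes. Settings chosen after seeing the data moved the count of genes passing for the replicate number, 80: it was 188 with quantile normalization, 207 with centred arrays, 0 without the level filter, 351 with the filter at the 60th percentile, 365 with raised signals and 893 with a variance trend. No detection calls were used, so values near 47.68 are uncertain.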
